A study of Mus musculus with 15 samples.

Results

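Microglia and macrophage genes were followed in cells sorted from the ventral midbrain of Pitx3-GFP mice, whose green fluorescent protein (GFP) reports Pitx3, the gene of a transcription factor of dopamine neurons. The 10 genes were chosen by name: Csf1r, Cx3cr1, P2ry12, C1qa, C1qb, C1qc, Aif1, Tyrobp, Trem2 and Mrc1. All 10 had a row among the 21566 genes measured in the sorted libraries, and 1 of them, Mrc1, had a row among the 10781 genes of the time series. The sorted experiment set GFP+ cells of embryonic day 14 (E14) against GFP− cells of the same age, with 3 libraries each. The time series held GFP+ cells at E14, at embryonic day 16 (E16) and at birth (P0), again with 3 libraries each. All 15 samples had the Pitx3-GFP genotype and had passed fluorescence-activated cell sorting, and no treatment other than the sort was recorded. Midbrains of 3 litters went into the preparations, and the labels do not tie a library to a litter, so each p-value here reflects only how the libraries varied, part of which may be technical. RNA was depleted of ribosomal RNA and not selected for poly(A) tails. The labels give dopamine neurons as the cell type of both sorted groups, whereas the GFP− cells are whatever the dissected and sorted tissue held without the reporter.

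Microglia are the resident macrophages of the brain. They descend from yolk sac progenitors that enter the neural tube early in development, depend on signals through the receptor Csf1r, and clear dying cells and synapses. Border-associated macrophages share this origin, live in the meninges and around vessels, and in adult mice differ from microglia by high levels of the mannose receptor Mrc1 and low levels of P2ry12.

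PU.1, encoded by Spi1, is the transcription factor that sets up the myeloid programme, and its DNA site has an ETS core for which the letters AGGAAGT (or ACTTCCT on the other strand) are a common form. Promoter sequences were at hand for 7 of the 10 genes, from RefSeq (GRCm38.p6). The letters occurred, on either strand, in the 250 bases before the annotated start of 4 of the 7, namely P2ry12, C1qb, C1qc and Mrc1, and were not found in the windows of Cx3cr1, Aif1 and Trem2. They were present in 7.69% of all 32851 RefSeq promoters of this length. This motif was chosen after the sequences had been seen, and a match is a description of letters and not of a bound site. The 4 stretches are shown because Mrc1, the gene that ran against the others, carries the same letters as 3 of the genes that were lower in GFP+ cells. They read 5′ to 3′ on the strand of the gene with the motif in capitals, and lie at chr3:59262991-59263077 (minus strand) for P2ry12, chr4:136886207-136886293 (minus) for C1qb, chr4:136893063-136893149 (minus) for C1qc and chr2:14229164-14229249 (plus) for Mrc1. The first base of the motif lay 52, 53, 195 and 211 bases before the RefSeq start of P2ry12, C1qb, C1qc and Mrc1. For all 4 genes the RefSeq start differs from the GENCODE start given below, so distances from the GENCODE start differ too. The C1qc stretch reaches into the gene as GENCODE places it.
P2ry12: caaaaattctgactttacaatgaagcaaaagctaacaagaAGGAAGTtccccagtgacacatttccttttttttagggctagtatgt
C1qb: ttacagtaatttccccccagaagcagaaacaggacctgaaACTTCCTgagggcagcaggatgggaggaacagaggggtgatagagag
C1qc: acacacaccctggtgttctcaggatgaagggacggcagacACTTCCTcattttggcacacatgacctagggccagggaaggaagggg
Mrc1: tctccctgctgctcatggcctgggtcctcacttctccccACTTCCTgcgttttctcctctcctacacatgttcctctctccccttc

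At E14, 9 of the 10 genes were lower in GFP+ cells and the tenth, Mrc1, was higher. Summed over the 9 lower genes, the GFP+ libraries held 70.7, 73.1 and 39.3 normalized reads (the authors' reads after scaling of each library), against 601, 645 and 731 in the GFP− libraries. The GFP+ mean of 61.0 ± 18.8 was 9.26% of the GFP− mean of 659 ± 66.4 (SD, n = 3 libraries each). The sorted libraries held 17369191 to 22374153 reads over all genes, and behind these sums stood 59, 79 and 37 reads in GFP+ and 558, 736 and 837 reads in GFP− cells. In bulk libraries fewer cells of a type and less RNA per cell cannot be told apart.

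Each gene passed the test across 18260 genes (limma on log2(normalized reads + 1), adjusted p at a threshold of 0.05), 9 in the lower and 1 in the higher direction. For comparison, 18.0% of all tested genes were called lower and 12.7% higher. In all 10 genes the GFP+ and GFP− libraries did not overlap. Among all tested genes 23.5% had every GFP+ library below every GFP− library and 20.5% had every one above. The median log2 fold change of the 10 genes was -3.28, and -3.31 without Mrc1, against a median of 0.02 over all tested genes. With the number of the library columns as a block, 4149 genes in place of 2313 were called higher over the whole table, and the calls of the 10 genes stayed as they were. All 10 had the mean of 5 normalized reads needed to enter the test, but C1qc, Aif1, Tyrobp and Trem2 averaged less than that in GFP+ cells and entered through the GFP− libraries.

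**Figure D1:**
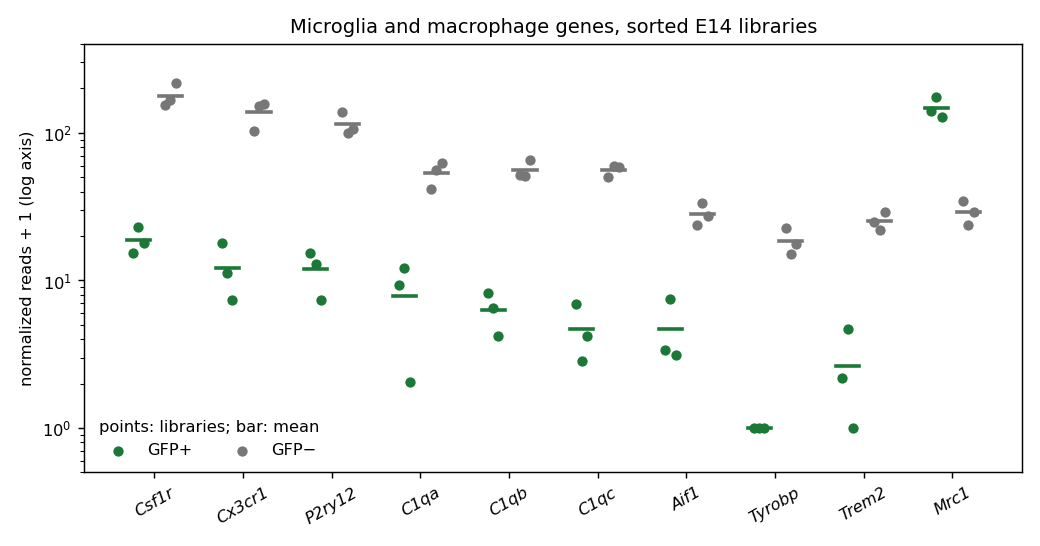
Normalized reads + 1 on a log axis for the 10 genes in the 3 GFP+ libraries (green, left of each pair) and the 3 GFP− libraries (grey), with a bar at each mean. The green points lie below the grey ones for 9 genes and above them for Mrc1, and the Tyrobp points of the GFP+ libraries all stand for 0 reads.

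The receptors for growth factor, chemokine and nucleotide signals were lower in GFP+ cells. Csf1r, the receptor for the survival factors CSF1 and IL-34 (chromosome 18, 61100598 to 61132149, plus strand; GENCODE M21 on GRCm38, as for all positions of whole genes here), had 14.4, 22.2 and 17.0 normalized reads in GFP+ cells, against 153, 165 and 215 in GFP− cells. The highest GFP+ library stayed far under the lowest GFP− library. The log2 fold change was -3.25 (SE 0.24, 95% interval -3.77 to -2.73; limma adjusted p = 9.8e-07), and the authors' deposited table gave -3.30 (SE 0.30) for it. Cx3cr1, the receptor for the neuronal chemokine fractalkine (chromosome 9, 119901616 to 120069879, minus strand), had 16.8, 10.2 and 6.38 normalized reads in GFP+ cells, against 102, 151 and 157 in GFP− cells. GFP+ cells thus held 8.12% of the GFP− level, a log2 fold change of -3.57 (SE 0.33; limma adjusted p = 7.86e-06). P2ry12, an ADP receptor that steers microglial processes toward injury (chromosome 3, 59216272 to 59262871, minus strand), had 14.4, 12 and 6.38 normalized reads in GFP+ cells, against 137, 98.0 and 105 in GFP− cells. Its log2 fold change was -3.31 (SE 0.31, 95% interval -4.00 to -2.62; limma adjusted p = 8.51e-06). Exons of Csf1r, P2ry12 and Cx3cr1 overlap exons on the opposite strand, of Hmgxb3, Med12l and the antisense gene Gm33858. Strand use in the counting is not given in the sources used here, and reads in these overlaps cannot be told apart.

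The 3 chains of C1q, the molecule that starts the classical complement pathway and tags synapses for removal, moved together. Their genes lie side by side on the minus strand of chromosome 4, C1qb at 136880129 to 136886187, C1qc at 136889804 to 136893065 and C1qa at 136895917 to 136898803. C1qa had 8.38, 11.1 and 1.06 normalized reads in GFP+ cells, against 40.9, 55.1 and 61.2 in GFP− cells. C1qb had 7.18, 5.55 and 3.19 in GFP+ cells, against 50.6, 49.9 and 64.7 in GFP− cells. C1qc had 5.98, 1.85 and 3.19 in GFP+ cells, against 49.5, 58.6 and 57.7 in GFP− cells. In GFP− cells the 3 chains averaged within 52.4 to 55.3 normalized reads, and in GFP+ cells all 9 values were lower than every GFP− value. The log2 fold changes were -3.10 (SE 0.57) for C1qa, -3.20 (SE 0.35) for C1qb and -3.68 (SE 0.39) for C1qc, with limma adjusted p = 0.0016, 2.83e-05 and 2.18e-05. C1qa had the widest interval of the chains, -4.36 to -1.83, and its GFP+ libraries also spread most.

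Aif1, the actin-binding protein Iba1 used to stain microglia (chromosome 17, 35170991 to 35176068, minus strand), had 2.39, 6.48 and 2.13 normalized reads in GFP+ cells, against 22.6, 32.4 and 26.2 in GFP− cells. It kept 13.5% of the GFP− level (log2 fold change -2.69, SE 0.44; limma adjusted p = 0.000659). Trem2, a receptor for lipids and lipoproteins on phagocytes (chromosome 17, 48346401 to 48354147, plus strand), had 1.20, 3.70 and 0 normalized reads in GFP+ cells, against 23.7, 21.0 and 28 in GFP− cells. The GFP+ values stand for 1, 4 and 0 reads, and the log2 fold change was -3.52 (SE 0.57; limma adjusted p = 0.000617).

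Tyrobp (DAP12), the adaptor through which Trem2 signals (chromosome 7, 30413760 to 30417585, plus strand), had 0 reads in each of the 3 GFP+ libraries. The GFP− libraries had 21.5, 14 and 16.6 normalized reads, or 20, 16 and 19 reads. Taken against 3 reads over the GFP+ group, about the upper 95% limit for a count of 0, Tyrobp was 16.6-fold lower in GFP+ cells. This is a limit and not a hard minimum. It covers only the counting error of the GFP+ reads. The difference was called by limma (adjusted p = 7.68e-05).

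Mrc1, the macrophage mannose receptor CD206 (chromosome 2, 14229392 to 14332057, plus strand), had 139, 174 and 127 normalized reads in GFP+ cells, against 33.4, 22.8 and 28 in GFP− cells. Every GFP+ library stood at more than the highest GFP− library, and the means were 146 ± 24.6 in GFP+ and 28 ± 5.31 in GFP− cells (SD, n = 3 each). The GFP+ level was 522% of the GFP− level, a log2 fold change of 2.35 (SE 0.22, 95% interval 1.86 to 2.83; limma adjusted p = 8.1e-06). In reads this was 116, 188 and 119 in GFP+ and 31, 26 and 32 in GFP− cells. The authors' deposited table gave 2.40 (SE 0.27). No exon of another annotated gene overlaps those of Mrc1. The microRNA gene Mir511 lies within one of its introns on the same strand.

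Per kilobase of annotated exon, Mrc1 was at the bottom of the 10 genes in GFP− cells and at the top in GFP+ cells. In GFP− cells C1qb (50.6 normalized reads per kb), C1qa (50.4) and P2ry12 (44.4) had the highest levels per length. Csf1r (30.7), Cx3cr1 (30.4), C1qc (28.6) and Tyrobp (26.1) formed a middle group, followed by Aif1 (17.7), and Trem2 (4.89) and Mrc1 (4.39) stood last. In GFP+ cells Mrc1 had 22.9 normalized reads per kb, and the next were C1qa with 6.59, C1qb with 4.88 and P2ry12 with 4.28. The 5 others with reads there lay between 0.33 (Trem2) and 3.10 (Csf1r), and Tyrobp was at 0. Neighbours such as C1qb and C1qa, Csf1r and Cx3cr1, or Trem2 and Mrc1 in GFP− cells differed by less than the SD of their libraries. The length is that of all annotated exons together, which lowers the value of a gene whose longer annotated forms are little used.

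The genes next to Mrc1 did not share its direction and size. Upstream, Tmem236, 7.40 kb away, had too few reads to test (1.20, 3.70 and 2.13 normalized reads in GFP+ and 3.23, 1.75 and 1.75 in GFP− cells). Stam, an adaptor of endosomal sorting 79.8 kb away, was not called (log2 fold change 0.14, SE 0.07), and Hacd1, an enzyme of fatty acid elongation, was higher by 0.43 (SE 0.10; limma adjusted p = 0.0074). Downstream, the zinc transporter gene Slc39a12, 56.3 kb away, had 43.1, 39.8 and 31.9 normalized reads in GFP+ cells, against 306, 309 and 289 in GFP− cells. Its log2 fold change was -2.96 (SE 0.17; limma adjusted p = 1.33e-07), while the calcium channel subunit gene Cacnb2 (0.00, SE 0.09) and the RNA methyltransferase gene Nsun6 (0.11, SE 0.12) were not called.

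**Figure D2:**
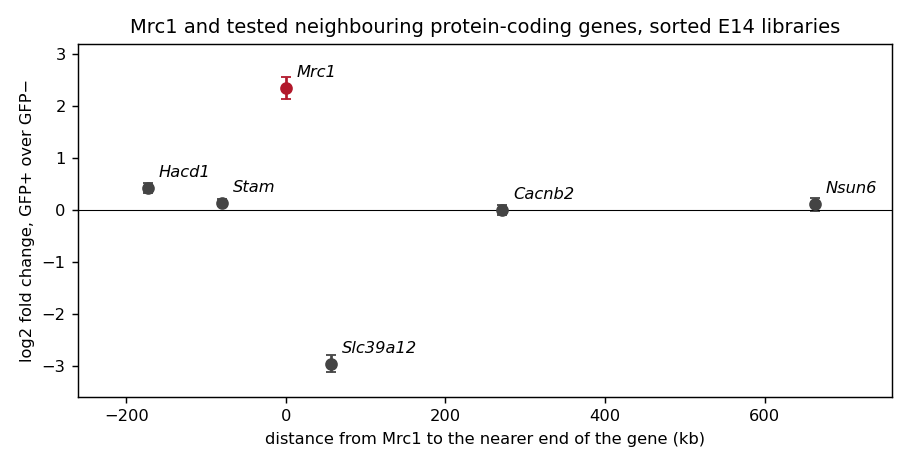
Log2 fold change (GFP+ over GFP−) with its SE for Mrc1 (red) and the 5 tested protein-coding genes among the nearest 3 on each side, against their distance from Mrc1 in kilobases. Mrc1 stands at 2.35 with Slc39a12 at -2.96 beside it, and the other 4 lie between 0.00 and 0.43.

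Other genes of microglial identity mostly followed the 9 lower genes. Of 22 listed, 18 were tested, with a median log2 fold change of -1.84. Of these 18, 15 were lower in GFP+ cells, 1 was higher and 2 were not called. Beside this and each later list of the sorted libraries, 18.0% of all tested genes were called lower and 12.7% higher. The counts here and in later lists can include genes with a mean below 5 in 1 of the groups, such as Tmem119. Such genes entered the test only through the other group, which set the direction of their means. Fcrls, a scavenger receptor of the Fc receptor-like family, had 8.38, 13.9 and 4.25 normalized reads in GFP+ cells, against 181, 188 and 186 in GFP− cells (log2 fold change -4.37, SE 0.34; limma adjusted p = 1.77e-06). Ctss, the lysosomal protease cathepsin S, had a log2 fold change of -3.54 (SE 0.23), and Tmem119, a surface protein of microglia, one of -3.50 (SE 0.52). The single higher gene was Tgfbr1, a widely expressed receptor of transforming growth factor beta (log2 fold change 0.85, SE 0.08; limma adjusted p = 5.49e-06).

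Genes of border-associated macrophages, for which Mrc1 is itself a marker in the adult brain, were split where they could be tested. Of 20 listed, 13 had a row and 7 were tested (median log2 fold change -0.31). Of the 7, 3 were higher in GFP+ cells, 3 lower and 1, the transcription factor Maf, not called. Among all tested genes 12.7% were higher and 18.0% lower. The highest was Siglec1, the sialic acid receptor sialoadhesin, with 82.6, 151 and 108 normalized reads in GFP+ cells, against 19.4, 11.4 and 6.12 in GFP− cells (log2 fold change 3.2, SE 0.38; limma adjusted p = 5.48e-05). Dab2, an endocytic adaptor, had 103, 68.5 and 75.5 normalized reads in GFP+ cells, against 18.3, 25.4 and 24.5 in GFP− cells (log2 fold change 1.80, SE 0.25). Clec12a, an inhibitory lectin receptor, was higher by 1.68 (SE 0.54; limma adjusted p = 0.0351) on few reads. It entered the test only through the GFP+ libraries. The scavenger receptor genes Stab1, Cd36 and Colec12 were lower, by log2 fold changes of -2.38 (SE 0.37), -2.06 (SE 0.41) and -1.44 (SE 0.31). The defining markers Lyve1, F13a1, Pf4, Ms4a6c, Ms4a6b and Folr2 had too few reads to test. Of these 6, Ms4a6c had 0 reads in all GFP+ libraries, and the others had no value above 5.98 normalized reads in GFP+ libraries or 9.69 in GFP− libraries. Lyve1 was low in both groups, with 0, 1.85 and 2.13 normalized reads in GFP+ cells, against 2.15, 2.63 and 5.25 in GFP− cells, and F13a1 had 5.98, 5.55 and 1.06 in GFP+ and 5.38, 1.75 and 7 in GFP− cells. On these few reads the GFP+ mean was below the GFP− mean for all 6 markers. It was 0% of the GFP− mean for Ms4a6c, 9.53% for Folr2, 12.1% for Ms4a6b and 27% for Pf4. For Lyve1 it was 39.7% and for F13a1 89.2%. Cd163, Ms4a7, Cbr2, Cd209f, Clec10a, Clec4n and Ccl24 had no row under these names.

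The general genes of myeloid cells and phagocytes were largely lower. Of 29 tested of 34, 18 were lower in GFP+ cells, 1 higher and 10 not called, with a median log2 fold change of -1.90. Some of the lower genes, among them Fcgr1 and Vav1, averaged less than 5 in GFP+ cells and entered only through the GFP− libraries. Ptprc, which encodes the leukocyte antigen CD45, had 9.57, 3.70 and 4.25 normalized reads in GFP+ cells, against 52.7, 43.8 and 47.2 in GFP− cells. Adgre1, the macrophage antigen F4/80, had 9.57, 5.55 and 4.25 normalized reads in GFP+ cells, against 87.2, 50.8 and 70.0 in GFP− cells. The log2 fold changes were -2.93 (SE 0.38) for Ptprc and -3.27 (SE 0.36) for Adgre1; the largest in the list were those of Axl, a receptor kinase for dead-cell uptake (-3.90, SE 0.22), the IgG receptor Fcgr1 (-3.6, SE 0.52) and the signalling protein Vav1 (-3.56, SE 0.44). The higher gene was Coro1a, an actin-binding protein also made by neurons (0.35, SE 0.11). Ptprc and Adgre1 were named here after their values had been seen.

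Of 11 tested myeloid transcription factors, 6 were lower, 0 higher and 5 not called (median log2 fold change -1.02). Ikzf1 (Ikaros), a regulator of blood lineages, had 2.39, 0.925 and 6.38 normalized reads in GFP+ cells, against 49.5, 92.8 and 79.6 in GFP− cells (log2 fold change -4.32, SE 0.49; limma adjusted p = 3.63e-05). Cebpb and Mef2c were lower by -2.37 (SE 0.69) and -2.26 (SE 0.25). Spi1 itself was below the level needed for a test, with 1.20, 0 and 0 normalized reads in GFP+ cells, against 4.31, 9.63 and 14 in GFP− cells.

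Among 16 tested ligands and signalling partners, 9 were lower, 2 higher and 5 not called (median log2 fold change -0.95). The share called higher was close to the 12.7% of all tested genes, of which 18.0% were called lower. Csf1, a ligand of Csf1r, had 21.5, 19.4 and 20.2 normalized reads in GFP+ cells, against 73.2, 70.0 and 78.7 in GFP− cells (log2 fold change -1.81, SE 0.22; limma adjusted p = 7.58e-05). Cx3cl1, the ligand of Cx3cr1, was lower by less (-0.86, SE 0.24; limma adjusted p = 0.0186). The largest changes were in Inpp5d, a phosphatase that dampens Trem2 and Tyrobp signals (-3.35, SE 0.40), and in Clu and Apoe, apolipoproteins that Trem2 binds (-3.08, SE 0.16, and -2.71, SE 0.15). The 2 higher genes encode signals that restrain phagocytes, Cd47 (0.63, SE 0.09) and Cd200 (0.55, SE 0.09). Csf1 and Cx3cl1 were singled out as ligands of listed receptors and not for the size of their change.

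Of 18 other complement genes tested, 6 were lower, 3 higher and 9 not called, with a median log2 fold change of -0.26, beside 18.0% lower and 12.7% higher among all genes. C1s1, a protease that binds C1q and whose reads could be shared with its close copy C1s2, had 2.39, 1.85 and 1.06 normalized reads in GFP+ cells, against 31.2, 45.5 and 32.4 in GFP− cells (log2 fold change -3.76, SE 0.40). The C3a receptor gene C3ar1 was lower by -3.37 (SE 0.53). C7, a part of the membrane attack complex, was higher, with 27.5, 18.5 and 20.2 normalized reads in GFP+ cells, against 2.15, 2.63 and 2.62 in GFP− cells (log2 fold change 2.72, SE 0.40; limma adjusted p = 0.000308). C1s1 and C3ar1 entered the test through the GFP− libraries and C7 through the GFP+ libraries. C1ql1, a C1q-like synaptic protein, and Cd55, which breaks up complement convertases, were higher by 1.23 (SE 0.21) and 0.86 (SE 0.17). Genes of reactive phagocytes, which include Axl again, had 7 of 10 tested lower, 0 higher and 3 not called (median log2 fold change -1.58), with Cd9 and the chemokine gene Ccl3 at -3.74 (SE 0.25) and -3.27 (SE 0.57).

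**Figure D3:**
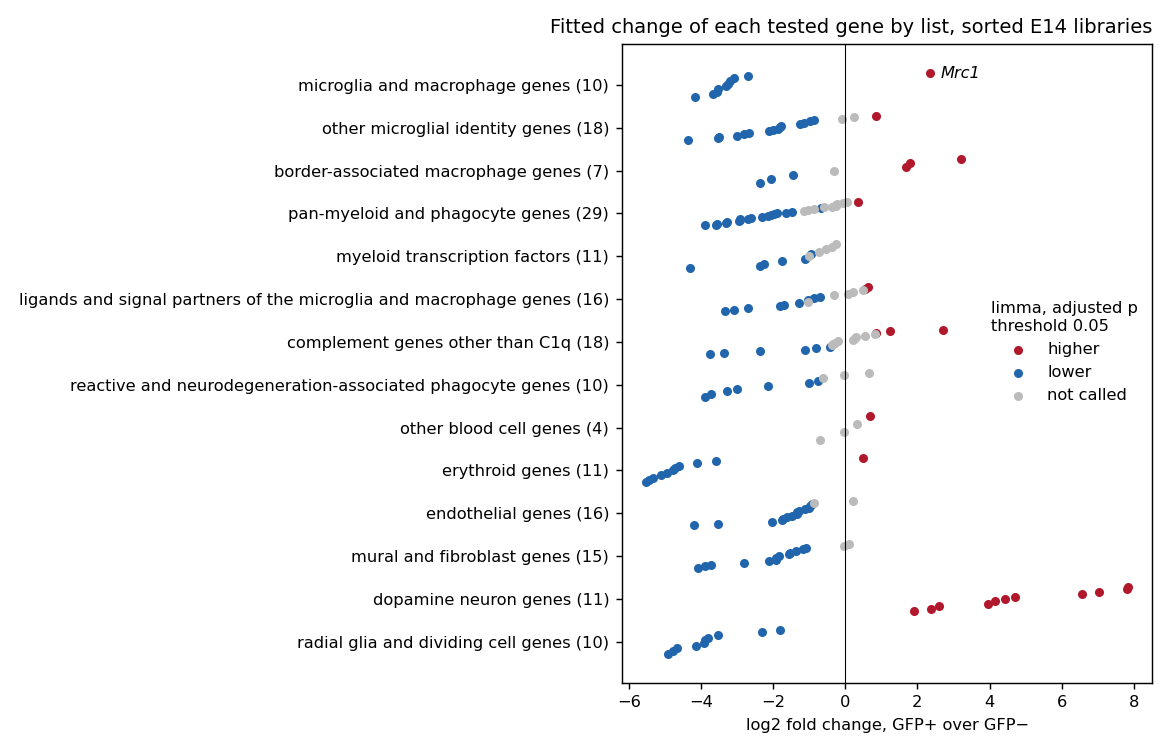
Log2 fold change (GFP+ over GFP−) of each tested gene, by list, coloured by its limma call; the number after each name counts the genes tested. Mrc1 stands apart from the 9 other microglia and macrophage genes, border-associated macrophage genes fall on both sides of 0, and the erythroid, endothelial, mural and radial glia lists lie mostly to the left as the myeloid lists do.

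Markers of other cell types that the sort could have left in or taken out moved as well. The sort itself was visible in the 11 dopamine neuron genes, all higher in GFP+ cells, with the dopamine transporter gene Slc6a3 at 7.85 (SE 0.25), Th, which makes the dopamine precursor, at 6.57 (SE 0.13) and Pitx3, on whose reporter the cells were sorted, at 7.03 (SE 0.20). The list summed to 89592 to 101523 normalized reads in GFP+ libraries, against 5210 to 6805 in the GFP− libraries, which carry the same cell type label. Of 11 tested erythroid genes 10 were lower and 1, the widely expressed transferrin receptor gene Tfrc, was higher (log2 fold change 0.48, SE 0.14; limma adjusted p = 0.0201). Some of the lower ones averaged less than 5 in GFP+ cells and entered the test only through the GFP− libraries. Without Tfrc the 13 measured erythroid genes summed to 324, 511 and 325 normalized reads in GFP+ cells, against 15104, 13912 and 14903 in GFP− cells, or 2.64% of the GFP− level. The haemoglobin genes, whose near-identical copies can share reads, led the lower ones, with Hbb-bs at -5.53 (SE 0.19). Of 16 tested endothelial genes 14 were lower, with a list sum of 751 to 844 in GFP+ and 1850 to 1934 in GFP− libraries. Of 15 tested mural and fibroblast genes 13 were lower, with 436 to 699 in GFP+ and 3701 to 3786 in GFP− libraries. Single genes weighed heavily in both sums. Kdr, which was not called, averaged 351 in GFP+ and 303 in GFP− cells. In the same list Mfsd2a averaged 36.9 in GFP+ and 430 in GFP− cells, and Slc2a1 126 and 425. In the mural and fibroblast list Pdgfra averaged 107 in GFP+ and 1554 in GFP− cells, and Notch3 45.9 and 619. All 10 genes of radial glia and dividing cells were lower, with a list sum of 7124 to 8687 in GFP+ and 74496 to 89351 in GFP− libraries. The median gene kept 3.02% of its GFP− level in the erythroid list, 6.47% in radial glia and dividing cells, 9.64% in the 10 microglia and macrophage genes, 27.7% in the mural and 38.7% in the endothelial list. Of 24 genes of other blood cells 20 had no row in the table, and of the 4 tested 1, Kit, was higher and 3 were not called. Kit had many reads in both groups, with means of 1104 in GFP+ and 685 in GFP− cells. The part of these cell types in the result was not tested.

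By likeness of pattern over the 6 sorted libraries (Pearson r of log2 values among 12584 genes, a ranking that mostly reads the step between the groups), the genes nearest to the mean of the 9 lower genes were Cntnap5a (r = 0.9995), Timp4 (0.9994), Ccdc60 (0.9993), Megf6 (0.999) and Msn (0.999). Timp4, an inhibitor of matrix proteases, had 19.1, 19.4 and 8.51 normalized reads in GFP+ cells, against 362, 378 and 381 in GFP− cells. Among those nearest to Mrc1 were Spast (0.9996), Cdk17 (0.9972), Nradd (0.9962) and Rap1b (0.9961). Their differences were smaller than that of Mrc1, for example log2 fold changes of 0.31 (SE 0.07) for the microtubule-severing gene Spast and 1.11 (SE 0.08) for the small GTPase gene Rap1b.

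Mrc1 could be followed in GFP+ cells over age. The other 9 genes were not analysed here, since the time series table begins at a mean of 107 normalized reads per gene. In libraries i, ii and iii of each age Mrc1 had 301, 290 and 271 normalized reads at E14, 507, 424 and 579 at E16, and 240, 484 and 799 at P0. The means were 287 ± 14.8, 503 ± 78.0 and 508 ± 280 (SD, n = 3 libraries per age). All E16 libraries stood above all E14 libraries, whereas the P0 libraries spanned the range of both earlier ages. These values come from a table normalized on its own and are not on the scale of the sorted libraries.

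Between E14 and E16 Mrc1 rose by a log2 fold change of 0.80 (SE 0.29, 95% interval 0.17 to 1.42; limma adjusted p = 0.0498), in a comparison in which 15.2% of the 10781 genes rose and 20.3% had every E16 library above every E14 library. This call lay at the threshold and was lost without 6 of the 9 libraries, at limma adjusted p = 0.0891, 0.1 and 0.128 without E14 libraries i, ii and iii, 0.0936 and 0.149 without E16 libraries i and iii, and 0.0664 without P0 library ii. The authors' deposited table gave 0.81 (SE 0.41; adjusted p = 0.112) for the same step. From E16 to P0 the log2 fold change was -0.14 (SE 0.29, 95% interval -0.77 to 0.49; limma adjusted p = 0.738), where 33.4% of genes changed. Over the whole span from E14 to P0 it was 0.66 (SE 0.29, 95% interval 0.03 to 1.28; limma adjusted p = 0.07), where 55.7% changed, 25.1% upward and 30.6% downward. A single P0 library decided this last value, which was 1.11 (limma adjusted p = 0.000266) without P0 library i and 0.25 (limma adjusted p = 0.376) without P0 library iii.

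**Figure D4:**
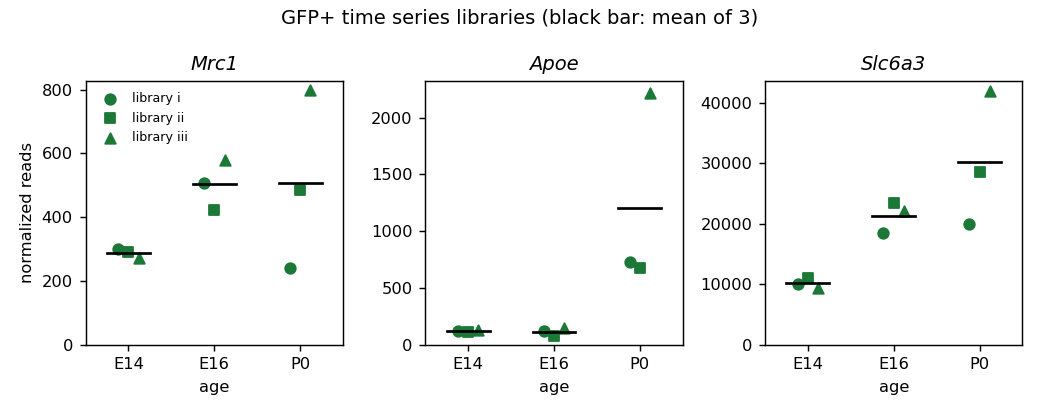
Normalized reads of Mrc1, Apoe and Slc6a3 in the GFP+ time series libraries at E14, E16 and P0, each library with its own symbol and a bar at the mean. Mrc1 is tight at E14 and spreads between 240 and 799 at P0, where library iii is the highest for all 3 genes.

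The P0 libraries also differed from each other in other genes. Library iii, the highest for Mrc1, had 2216 normalized reads of Apoe, against 725 and 672 in libraries i and ii, and 3293 of the radial glia gene Fabp7, against 1438 and 1081. For Slc6a3 the 3 libraries had 20001, 28473 and 41949 normalized reads, in the same order as for Mrc1. Whether these differences bear on Mrc1 was not tested.

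Other listed genes were also measured over age, and called from E14 to P0 as follows. Among the microglial identity genes, Tgfbr1 and the Golgi protein gene Golm1 fell, with log2 fold changes of -1.35 (SE 0.08) and -1.34 (SE 0.13). Of 8 phagocyte genes 5 rose and 1 fell, and of 8 ligands and partners 6 rose and 1 fell, where 25.1% of all 10781 genes rose and 30.6% fell. Among the phagocyte genes that rose was Gas6, a bridging ligand of Axl (1.29, SE 0.08). Cx3cl1 had 225, 220 and 131 normalized reads at E14, 298, 544 and 406 at E16, and 578, 607 and 705 at P0 (P0 over E14 1.75, SE 0.22; limma adjusted p = 1.25e-05). The largest rises among the ligands and partners were those of Apoe (3.09, SE 0.35) and Clu (1.89, SE 0.17). Cd200 and Cd47, the 2 higher genes of this list in the sorted libraries, rose by less, 0.53 (SE 0.08) and 0.33 (SE 0.10). Of the listed border-associated macrophage genes, myeloid transcription factors and endothelial genes none had a row in the time series.

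Over the 9 time series libraries the genes most like Mrc1 were Epha4 (r = 0.9618), Fez2 (0.9596), Gpr139 (0.9543), Atxn10 (0.9469) and Agpat4 (0.9405), of 10780 ranked. Of these 5, chosen for their likeness, only Gpr139, a G protein-coupled receptor gene, was called between E14 and E16 (log2 fold change 0.51, SE 0.18; limma adjusted p = 0.047), and Epha4, a guidance receptor gene, had 0.31 (SE 0.15). Among 7528 circular RNAs of the time series 1 was named for Mrc1. It had 2.74 normalized reads in E14 library iii, 2.86 in E16 library ii and 1.53 in E16 library iii, and was listed at 0 in the other 6 libraries. None of the 3927 circular RNAs listed for the sorted GFP− libraries was named for any of the 10 genes.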

How the data were processed

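Gene values were read from 2 tables of normalized reads, a signal value per gene deposited by the authors, 1 for the 6 sorted libraries and 1 for the 9 time series libraries, each scaled on its own. Per the submitters' processing notes, Trim Galore, TopHat2, DESeq2, GRCm38 and mm10 were used; their versions, the read counter and whether strand was used are not given in the sources used here. The deposited comparisons hold, per the file headers, log2 fold changes, their SEs, p-values and adjusted p-values, cited as the authors' deposited table.

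Each table was fitted with limma-trend (limma 3.58.1 in R 4.3.3) as a two-sided test of log2(normalized reads + 1) in genes with a mean of at least 5, with Benjamini-Hochberg adjustment over all genes tested and a threshold of 0.05. Fold changes are on that scale, which understates those of genes with few reads. Tested genes with a mean below 5 in either sorted group entered only through the other group, which set the direction of their means. Among the list genes named with a fold change, Tmem119, Fcgr1, Vav1, Ikzf1, Cebpb, Inpp5d, C1s1, C3ar1 and Ccl3 entered through GFP− cells. C7 and Clec12a entered through GFP+ cells. In the sorted table the values were whole multiples of 1 step per library (within 0.1, for 100% of values), which gave reads, depths of 17369191 to 22374153 per library, and count tests with edgeR 4.0.16 and DESeq2 1.42.0 as alternatives. On these reads edgeR called 3387 genes lower and 2154 higher in GFP+ cells. Called members among all genes were counted, and no set test was run. On simulated data limma recovered 98.2% of genes changed by a log2 fold change of 1 and 100% of those changed by 2 among 18272 sorted genes, and 99% and 100% for P0 over E14 among 10781. The changed genes were drawn only from those with a mean of at least 50, and all genes were given the same spread beyond counting error. Only 3 of the 9 lower genes reached that mean, so the recovery does not cover the others. Alternatives were other pseudocounts, filters and scalings, the library number as a block, leaving out each library, and the authors' deposited comparison.

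The column names give both sorted groups the numbers 1 to 3. Deviations from the group means correlated at 0.64, 0.36 and 0.23 within the numbers, while GFP− library 3 correlated at 0.39 with GFP+ library 2. A pairing by number was therefore possible but not certain, and was used only as a block in an alternative fit. The main fit had no block, so its p-values and its shares of all genes called ignore any pairing. With the block 4317 genes were called lower and 4149 higher, in place of 3286 and 2313. Columns were matched to groups and not to single samples. The genes named were the 10 members, up to 3 per direction of each list with the largest change past the threshold, the nearest 3 protein-coding genes on each side of Mrc1 and the 5 most alike, and others are said to be chosen after their values were seen or for their role. The members and lists were chosen with earlier results of these data known. Positions come from GENCODE M21. Some items that these rules name are not reported here.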

Additional observations from a re-analysis of the deposited data

How the results depend on the processing

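The 10 sorted calls kept their direction and their side of the threshold in all 154 values under the alternatives that could test them, 10 of which are the authors' deposited comparison, with Csf1r between -3.41 and -2.84, Tyrobp between -7.15 and -1.65 and Mrc1 between 2.10 and 2.48, and a highest adjusted p of 0.011 for C1qa. With a mean of at least 50 required, only 3 of the 9 lower genes were tested and called. With the replicate block 4149 sorted genes were called higher, in place of 2313, and no call of the 10 genes changed. In the time series the numbers did not pair the libraries, and with the replicate block the P0 over E14 value of Mrc1 stayed at 0.66 with an adjusted p of 0.0456, past the threshold. Over the alternatives its adjusted p ranged from 0.000266 to 0.376, and that of E16 over E14 from 0.00262 to 0.149. Leaving out 1 library at a time gave 0.69 to 0.92 for E16 over E14, -0.55 to 0.32 for P0 over E16 and 0.25 to 1.11 for P0 over E14. The cause was not tested. With 0 to 24 reads per library for the 9 lower genes in GFP+ cells, depth limits how far these genes can be ranked there.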
